A study of Mus musculus with 2 samples.

Results

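The RNA-seq tables of sorted BM LSKs list 34745 genes, and 10 of these genes, which encode subunits of the transcription factor NF-κB or proteins that hold it in check, are described here by their reads and by FPKM, the reads per kilobase of exon after scaling for library size. The genes were picked by symbol, as Nfkb1, Nfkb2, Rel, Relb, Nfkbia, Nfkbie, Nfkbiz, Nfkbid, Bcl3 and Tnfaip3, and each was found once in both tables. LSKs are bone marrow cells without lineage markers that carry Sca1 and c-Kit on their surface, the gate in which hematopoietic stem cells and early progenitors lie. Scl/tTA-BA mice are C57BL/6 transgenic mice in which the Scl promoter drives the tetracycline transactivator tTA in stem and progenitor cells, and tTA turns on BCR/ABL1 (BA) once doxycycline is taken out of the drinking water. The week-0 library came from transgenic mice still on doxycycline, labelled as the control, and the week-3 library from mice of the same genotype 3 weeks after withdrawal. The cells of 3 mice were mixed for each library, so there was 1 library per time point, the spread between mice is unknown, and no test between conditions was possible. In the study's parallel Scl/tTA-GFP mice only part of the LSKs had turned the reporter on at week-3, so the week-3 LSKs may hold cells with and without BA. The age and sex of the mice are not given in the sources used here.

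NF-κB is a dimer built from proteins of the Rel family. In a resting cell IκB proteins keep the dimer in the cytoplasm. A signal from a cytokine or pattern recognition receptor activates the IκB kinase, IκB is destroyed, and the dimer enters the nucleus and binds κB sites in its target genes. Several of those targets are the genes of the inhibitors themselves, and so the pathway is known for negative feedback. In the marrow it is known for its part in inflammatory signalling, in the survival of leukemic cells and in the maturation of lymphoid and myeloid cells.

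All 10 genes had a lower level at week-3 than at week-0, and for 8 of 10 it was at most 0.5 times the week-0 level. None was higher. Among the 12192 genes with at least 20 reads over both libraries, which included all 10, 15.6% were at most 0.5 times and 10.6% at least 2 times their week-0 level. These limits, a ratio of at most 0.5 for "lower" and of at least 2 for "higher", are used throughout on reads per 1000000 reads counted on genes. Restricting the comparison to the 6895 genes with at least 200 reads, the share at most 0.5 times was 10.7%, and the 10 genes and their 8 lower ones stayed in. The median log2 ratio (week-3 over week-0) of the 10 genes was -2.43, against 0.07 over all genes compared. Together the 10 genes took 38442 reads, 0.605% of the library, at week-0, whereas in the week-3 library they took 3754, or 0.0966%. The sum of their FPKM was 2187 at week-0 and 354 at week-3. In bulk RNA, fewer cells that express a gene and less of its RNA per cell cannot be told apart. The library and the time point cannot be told apart either.

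**Figure D1:**
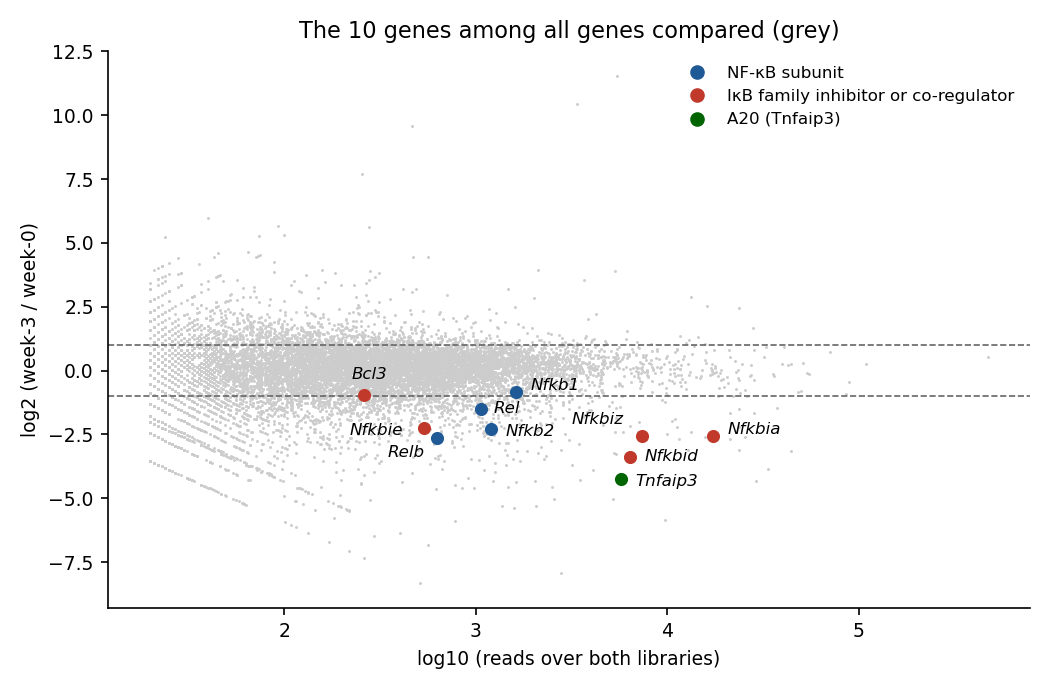
Log2 ratio of week-3 over week-0 (vertical axis) against the log10 number of reads over both libraries for the 12192 genes compared (grey) and the 10 genes (coloured by role); dashed lines mark a ratio of 2 and of 0.5. All 10 lie below 0, and Tnfaip3, Nfkbid, Nfkbiz and Nfkbia combine many reads with a low ratio.

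Promoter sequence is shown for these genes because κB sites are the DNA element through which NF-κB acts on its targets, several of these inhibitors among them. RefSeq windows on GRCm38.p6, running from 250 bases before to 50 bases after a start site, were at hand for 7 of the 10 genes, Nfkb2, Rel, Nfkbia, Nfkbie, Nfkbid, Bcl3 and Tnfaip3, and not for Nfkb1, Relb and Nfkbiz. Both strands were searched for the 10-base κB consensus, and overlapping matches were kept. All 250 bases upstream of Nfkbia, the most abundant of the 10 transcripts, follow, from chr12:55492648-55492897 on the minus strand. They lie outside any GENCODE M21 exon, and capitals mark the match, which begins at position -29 counted from the start site.
Nfkbia: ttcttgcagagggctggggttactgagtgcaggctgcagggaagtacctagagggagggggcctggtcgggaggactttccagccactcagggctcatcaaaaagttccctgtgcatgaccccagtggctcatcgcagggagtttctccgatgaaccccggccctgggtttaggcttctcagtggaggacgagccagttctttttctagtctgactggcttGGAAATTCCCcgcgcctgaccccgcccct

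Of the 13 matches in the windows of the 6 other genes, 8 are shown with 10 bases on either side, read along the gene's strand, to let their letters be compared. For Nfkb2 and Rel the match that shares its letters with another gene was chosen, and every match of the other genes is shown. Those shown for Nfkb2 and Bcl3 and the one at position -12 of Tnfaip3 overlap an exon of GENCODE M21.
Rel, position -91, chr11:23771041-23771070, minus strand: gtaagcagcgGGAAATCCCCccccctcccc
Tnfaip3, position -12, chr10:19015403-19015432, minus strand: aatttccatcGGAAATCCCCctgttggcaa
Tnfaip3, position -125, chr10:19015516-19015545, minus strand: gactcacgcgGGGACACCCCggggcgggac
Nfkbid, position -181, chr7:30422215-30422244, plus strand: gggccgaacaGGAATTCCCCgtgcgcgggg
Nfkbid, position -226, chr7:30422170-30422199, plus strand: gccccgccctGGGACTTCCCagagcaccac
Nfkb2, position -38, chr19:46304689-46304718, plus strand: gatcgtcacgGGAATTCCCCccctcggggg
Nfkbie, position -106, chr17:45555584-45555613, plus strand: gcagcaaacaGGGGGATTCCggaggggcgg
Bcl3, position 2, chr7:19822734-19822763, minus strand: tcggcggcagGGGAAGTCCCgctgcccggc

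The same 10 letters, GGAAATCCCC, stood in the windows of Rel and Tnfaip3, and GGAATTCCCC in those of Nfkbid and Nfkb2. Counting overlapping ones, 14 matches with 12 different spellings lay in the windows of the 7 genes, and Nfkb2 held the largest number, 5. At least 1 match was present for 7 of 7 genes and in 9 of their 12 windows, against 2779 of all 32851 windows of the genome (8.46%). Over genes the background was 9.55%, and it was 12.1% among the compared genes that have a window. The 10 genes were chosen as genes of this pathway, so the share is a description of them, and a match is not evidence of binding.

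**Figure D2:**
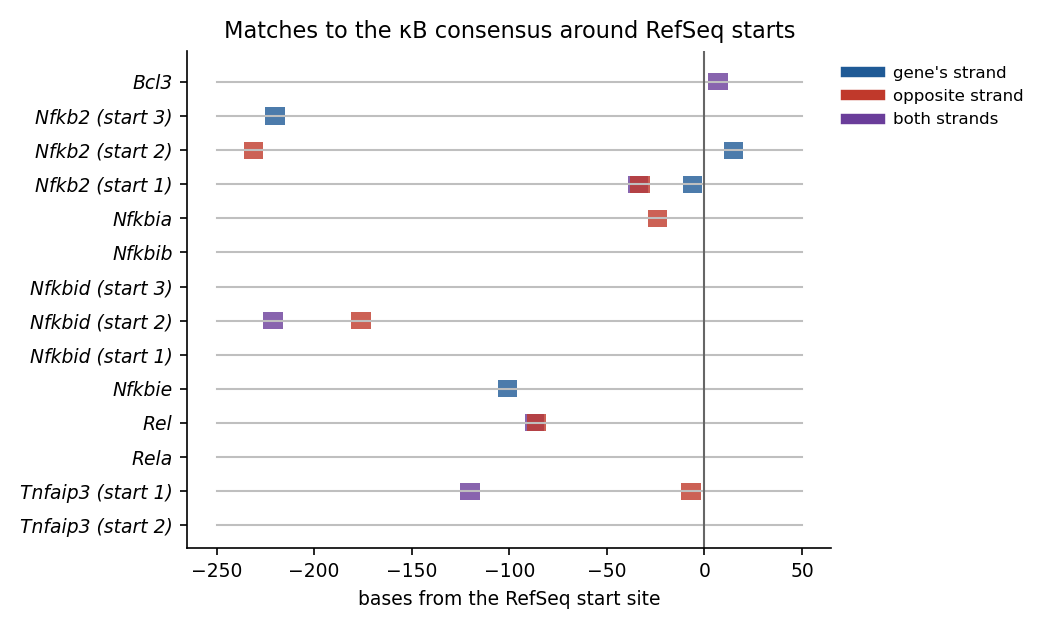
Matches to the κB consensus in RefSeq windows of the 7 genes and of Rela and Nfkbib; the horizontal axis gives bases from the start site, each grey line is 1 window, and colour gives the strand of the match. Matches lie on both sides of the start, from -236 to 10, and the single windows of Rela and Nfkbib hold none.

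Nfkb1 and Nfkb2 encode the precursors p105 and p100, which are cut to the DNA-binding subunits p50 and p52 and, while whole, act as inhibitors as well. Rel encodes c-Rel and Relb encodes RelB, which unlike p50 and p52 carry a transactivation domain. Nfkb2 (chromosome 19, 46304737 to 46312090 on GRCm38) had 1069 reads at week-0 against 133 at week-3, or 49.7 and 10.1 FPKM. Its log2 ratio was -2.30, with an exact Clopper-Pearson 95% interval of -2.57 to -2.04. Such intervals cover the counting error of the reads only, and since amplified cDNA gives reads that are not independent molecules, they are lower limits of the uncertainty. The level of Nfkb2 at week-3 was thus 4.91-fold lower, well outside the counting error.

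Relb (chromosome 7, 19606217 to 19629438) had 573 reads at week-0 against 56 at week-3, or 16.3 and 2.61 FPKM. It was 6.26-fold lower at week-3 (log2 ratio -2.65, interval -3.07 to -2.25), the lowest ratio of the 4 subunit genes. RelB is the partner of p52 in the non-canonical branch of the pathway, and the counting intervals of Relb and Nfkb2 overlapped. Rel (chromosome 11, 23736847 to 23770970) went from 880 reads to 190, or 18.5 to 6.55 FPKM, with a log2 ratio of -1.50 (interval -1.74 to -1.27). Nfkb1 (chromosome 3, 135584655 to 135691547) had 1207 reads at week-0 against 413 at week-3, or 11.7 and 6.55 FPKM. Its log2 ratio of -0.84 (interval -1.002 to -0.68) was the one nearest to 0 of the 10. With a level 1.79-fold lower at week-3, the ratio did not reach the limit of -1. The interval just spans that limit, so the side of Nfkb1 is not settled by counting error.

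Summed over the 4 subunit genes, the level was 96.3 FPKM at week-0 against 25.8 at week-3, and 3 of 4 were lower (75%, against 15.6% of all genes). The 2 precursor genes moved by unequal amounts. Within the week-0 library the FPKM of Nfkb2 was 4.25 times that of Nfkb1, and within the week-3 library it was 1.54 times, a log2 change of -1.46 ± 0.16 (counting SE). The FPKM of Relb was 0.879 times that of Rel at week-0 and 0.398 times at week-3 (log2 change -1.14 ± 0.23, counting SE). Both quotients compare genes inside 1 library and so do not depend on how the libraries are scaled to each other. The RNA of both non-canonical subunits was therefore lower relative to that of Nfkb1 and Rel at week-3.

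Rela, the gene of p65 and the only Rel family gene not among the 10, was lower too. It had 2080 reads and 120 FPKM at week-0 and 375 reads and 35.5 FPKM at week-3, a log2 ratio of -1.76 (interval -1.92 to -1.60).

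**Figure D3:**
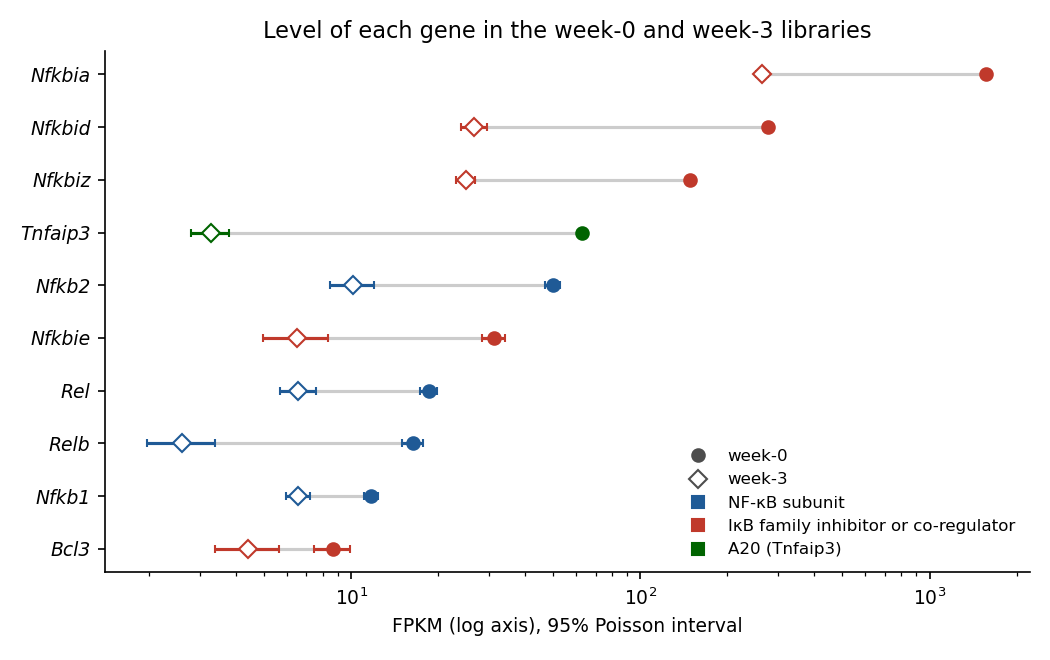
FPKM of the 10 genes on a log axis in the week-0 library (filled circles) and the week-3 library (open diamonds), with exact 95% Poisson intervals of the reads (counting error only); colour gives the role. Every diamond lies to the left of its circle, and Tnfaip3 covers the widest distance, from 62.6 to 3.26 FPKM.

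The IκB family genes held most of the RNA of the group. The classical inhibitors IκBα (Nfkbia) and IκBε (Nfkbie) bind NF-κB in the cytoplasm. The others, IκBζ (Nfkbiz), IκBNS (Nfkbid) and Bcl-3 (Bcl3), are nuclear proteins that bind mainly p50 or p52 dimers on DNA and raise or lower transcription depending on the gene. Of these 5 genes, 4 were lower (80%, against 15.6% of all genes). The median log2 ratio of the 5 was -2.57, and their summed level was 2029 FPKM at week-0 and 325 at week-3.

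Nfkbia (chromosome 12, 55489411 to 55492647) had 15687 reads at week-0 against 1612 at week-3. Its level was 1565 FPKM at week-0, the 29th highest of all genes in that library, and 263 FPKM at week-3, the 198th highest. It was 5.95-fold lower (log2 ratio -2.57, interval -2.65 to -2.50). In both libraries it was the most abundant of the 10, with 71.5% of their summed FPKM at week-0 and 74.2% at week-3, so its dominance in the group was kept while the group as a whole was lower. The other cytoplasmic inhibitor, Nfkbie (chromosome 17, 45555716 to 45563169), had 478 reads and 61, or 31.0 and 6.48 FPKM, and a log2 ratio of -2.26 (interval -2.67 to -1.87).

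Nfkbib, the gene of IκBβ and a close relative of Nfkbia and Nfkbie that is not among the 10, did not share this. It had 626 reads at week-0 against 369 at week-3, or 33.1 and 32.0 FPKM, and its log2 ratio was -0.05 with an interval of -0.24 to 0.13, close to the median of all genes. At week-0, Nfkbia stood at 47.2 times and Nfkbie at 0.937 times the FPKM of Nfkbib. At week-3 the quotients were 8.23 and 0.203, log2 changes of -2.52 ± 0.10 and -2.21 ± 0.22 (counting SE). The gene of IκBβ, unlike that of IκBα, is not known as a strong target of NF-κB, but the part of NF-κB in these values was not tested. The transcript of IκBβ had about the same FPKM in both libraries, while those of IκBα and IκBε did not. Set against Rela, whose product IκBα binds, Nfkbia was at 13.0 times the FPKM at week-0 and at 7.40 times at week-3 (log2 change -0.81 ± 0.09, counting SE).

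Of the nuclear IκB genes, Nfkbid (chromosome 7, 30421732 to 30428746) had the lowest ratio. It had 6059 reads and 276 FPKM at week-0 and 357 reads and 26.6 FPKM at week-3, which was 10.4-fold lower (log2 ratio -3.38, interval -3.53 to -3.22). Its share of the summed FPKM of the 10 genes was 12.6% at week-0 and 7.50% at week-3. Nfkbiz (chromosome 16, 55811375 to 55838899) had 6738 reads and 693, or 148 and 24.9 FPKM. Its log2 ratio of -2.57 (interval -2.69 to -2.46) differed from that of Nfkbia by less than the counting error, so these transcripts kept their proportion to each other while both were 5.95-fold lower.

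Bcl3 (chromosome 7, 19808462 to 19822770) was the least abundant of the 10 at week-0. It had 199 reads at week-0 against 62 at week-3, or 8.62 and 4.39 FPKM, and its log2 ratio was -0.97 (interval -1.41 to -0.55). The value falls just short of the limit of -1, and its interval spans the limit, so at this depth the gene could not be placed on either side. It is the one member whose side depended on the scaling of the libraries. Bcl3 lies 179 kb from Relb on chromosome 7, and Relb, with a lower ratio, had an interval that did not overlap that of Bcl3.

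Tnfaip3 encodes A20, an enzyme that edits ubiquitin chains on signalling proteins upstream of the IκB kinase and so ends the signal. It had the lowest ratio of the 10. At week-0 it had 5552 reads and 62.6 FPKM, and at week-3 it had 177 reads and 3.26 FPKM, 19.2-fold lower (log2 ratio -4.26, interval -4.49 to -4.05). The gene lies on chromosome 10, from 19000910 to 19015657. Among all 12192 genes compared it had the 95th lowest ratio, and 0.779% of genes had a ratio as low or lower. By FPKM it was the 814th gene of the week-0 library and the 6976th of the week-3 library. Cyld, which encodes another deubiquitinase that limits the pathway, had a log2 ratio of 0.29 (96 reads and 72). The FPKM of Tnfaip3 was 36.4 times that of Cyld at week-0 and 1.55 times at week-3.

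**Figure D4:**
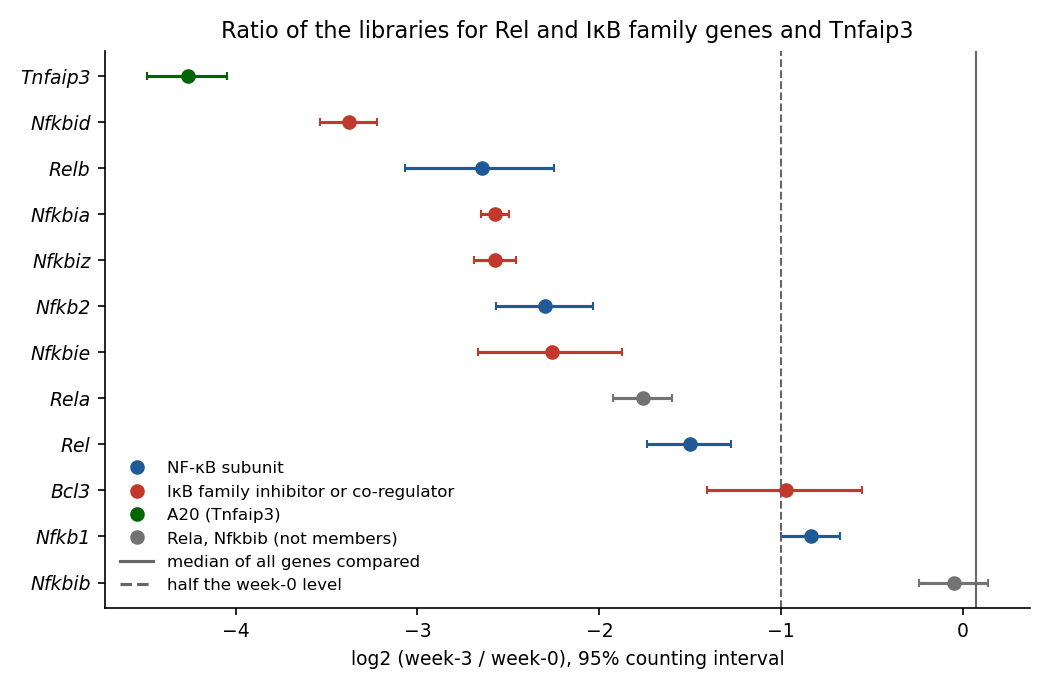
Log2 ratio of week-3 over week-0 for the 10 genes and for Rela and Nfkbib, with exact 95% counting intervals; the solid line marks the median of all genes compared (0.07) and the dashed line a ratio of 0.5. The order runs from Tnfaip3 at -4.26 to Nfkb1 at -0.84, with Nfkbib at -0.05.

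Ordered by ratio, the genes ran Tnfaip3, Nfkbid, Relb, Nfkbia, Nfkbiz, Nfkb2, Nfkbie, Rel, Bcl3 and Nfkb1. The intervals of Tnfaip3 and Nfkbid overlapped neither each other nor those of the genes after them. From Relb to Nfkbie the interval of each gene overlapped that of the next, and these 5 could not be ordered by counting error. A gap followed between Nfkbie and Rel. Neighbours from Rel to Nfkb1 overlapped again. Ordered by FPKM at week-0, the genes ran Nfkbia, Nfkbid, Nfkbiz, Tnfaip3, Nfkb2, Nfkbie, Rel, Relb, Nfkb1 and Bcl3, and of these neighbours the counting intervals of Rel and Relb were the ones that overlapped. At week-3 the order began with Nfkbia, Nfkbid, Nfkbiz and Nfkb2, and Nfkb1 and Rel came next at an FPKM of 6.55 each. Tnfaip3 went from place 4 to place 9, ahead of Relb alone. At week-3 the intervals of Nfkbid and Nfkbiz overlapped, and so did those of all neighbours from Nfkb1 on.

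The rest of the pathway was read from lists of 97 further genes, ordered by their place in the signal. Of these, 84 were compared, 25 were lower (29.8%, against 15.6% of all genes) and 3 were higher (3.57%, against 10.6%). Their median log2 ratio was -0.30. The 10 subunit and inhibitor genes are in none of these lists.

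Of the receptors and their ligands, 16 of 25 were compared, 5 were lower (31%, against 15.6% of all genes) and none was higher (against 10.6%). The median log2 ratio was -0.65. The ligands gave the lowest values. Tnf, the cytokine TNF-α, had 1131 reads and 119 (58.4 and 10.1 FPKM, log2 ratio -2.54). Tnfsf11, which encodes RANKL, had 83 reads at week-0 and none at week-3. Put at a floor of 3 reads in the week-3 library, it was 16.9-fold lower, and the upper end of its counting interval was a log2 ratio of -3.75. Il1b, the cytokine IL-1β, had 144 reads and 24, a log2 ratio of -1.87, and Ltb, a lymphotoxin subunit, had 411 and 104. The TNF receptor gene Tnfrsf1a had 764 reads and 283, a log2 ratio of -0.72 that did not reach the limit. Of the receptor genes compared, Tnfrsf13c, the receptor of the B cell factor BAFF, reached it with 92 reads and 27.

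Of the adaptors and kinases between receptor and IκB, 29 of 30 were compared, 3 were lower (10.3%, against 15.6% of all genes) and 1 was higher (3.45%, against 10.6%), with a median log2 ratio of -0.06, near that of all genes. Malt1, a protease and scaffold of the lymphocyte receptor branch, had 357 reads and 40 (log2 ratio -2.45, interval -2.96 to -1.97). Map3k8, the kinase Tpl2 that p105 binds, had 352 reads and 48 (log2 ratio -2.16). Irak2, a kinase of the IL-1 receptor branch, had 146 reads and 25 (log2 ratio -1.84), while Irak4 of the same branch had 160 and 228 and was higher (log2 ratio 1.22, interval 0.92 to 1.52). The IκB kinase gene Ikbkb had 641 reads and 318 (log2 ratio -0.30), and Rbck1, which encodes a part of the linear ubiquitin ligase, had 1261 reads and 741 (log2 ratio -0.06). Sharpin, another part of that ligase, had 596 and 346 (log2 ratio -0.07).

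Of the other negative regulators, 16 of 16 were compared, 4 were lower (25%, against 15.6% of all genes) and none was higher (against 10.6%). The median log2 ratio was 0.04 (-0.07 with TMM and -0.05 with median-of-ratios scaling), near that of all genes. Zc3h12a encodes Regnase-1, an RNase that destroys cytokine messages, and had 1628 reads and 86 (83.3 and 7.20 FPKM, log2 ratio -3.53, interval -3.86 to -3.22). Socs1, an inhibitor of cytokine receptor signalling, had 374 reads and 79 (log2 ratio -1.53). Tnip1, whose product binds A20, had 534 reads and 126 (log2 ratio -1.37), and Nlrc3 had 325 and 91 (log2 ratio -1.13). Tax1bp1, another partner of A20 and the gene of the list with the most reads, had 2174 and 1153 (log2 ratio -0.21).

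Of the target genes, 21 of 24 were compared, with a median log2 ratio of -1.25. Of these, 12 were lower (57.1%, against 15.6% of all genes) and 2 were higher (9.52%, against 10.6%). Cd83, a surface protein of activated B cells and dendritic cells, had 514 reads at week-0 against 1 at week-3, the lowest ratio of all genes compared (log2 ratio -8.30, interval -13.60 to -5.81). Ptgs2, the cyclooxygenase COX-2, had 253 reads and 9 (log2 ratio -4.10), and Traf1, an adaptor of TNF receptors, had 448 and 17 (log2 ratio -4.01). The chemokine genes did not go one way. Ccl4 had 4774 reads and 782 (1138 and 305 FPKM, log2 ratio -1.90) and Ccl3 had 1698 and 455 (log2 ratio -1.19), while Ccl2 had 43 and 193 and was higher (log2 ratio 2.88). Mmp9, a matrix protease of neutrophils, was higher from few reads, 9 and 35 (log2 ratio 2.67). Ier3, an early response gene, had 3429 reads and 1163 (log2 ratio -0.85) and did not reach the limit.

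**Figure D5:**
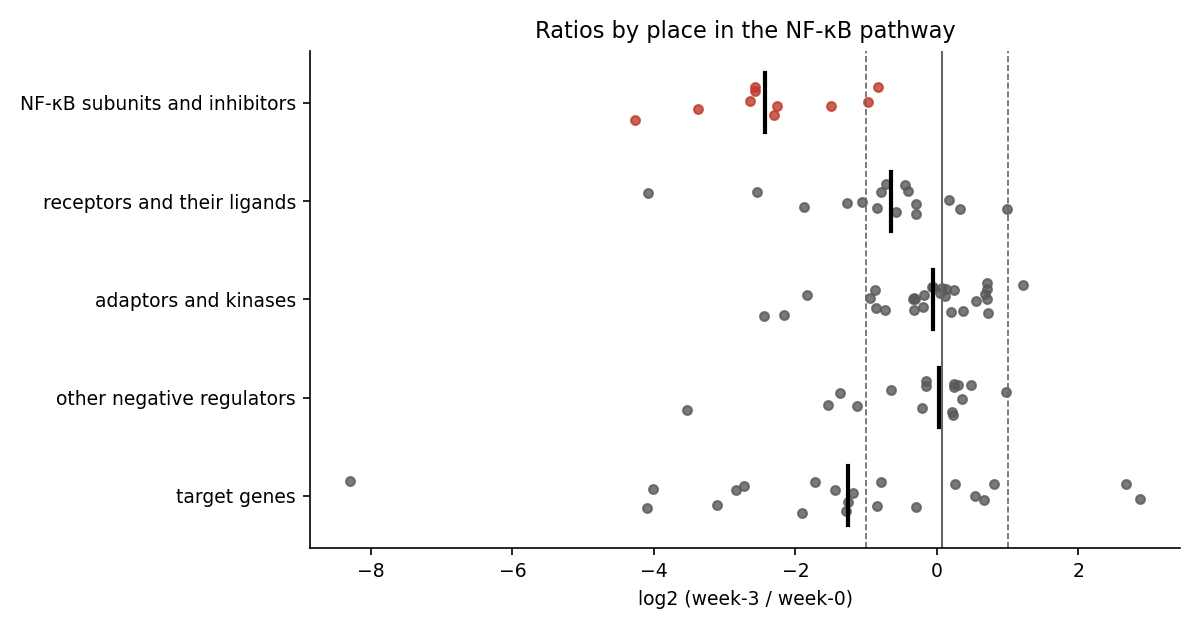
Log2 ratio of week-3 over week-0 for each compared gene of the 10 and of 4 pathway lists (1 point a gene, spread vertically for sight); black bars are list medians, the solid line is the median of all genes and dashed lines mark ratios of 0.5 and 2. Tnfsf11, with no read at week-3, is drawn at its bound of 3 reads. The medians run from -2.43 for the subunits and inhibitors and -1.25 for the targets to -0.06 for adaptors and kinases and 0.04 for the other negative regulators (-0.07 with TMM scaling).

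Markers of other cells and of early response moved between the same libraries. Immediate-early genes are switched on by a wide range of stimuli, cell handling included, and several of the 10 genes are also known to respond early. Of 16 immediate-early genes, 15 were lower (93.8%, against 15.6% of all genes) and all 16 had a ratio below 1. Their share of the reads was 4.52% at week-0 and 1.24% at week-3. Egr1 had 41528 reads and 2859 (log2 ratio -3.15), and Fos had 36852 and 13025 (log2 ratio -0.79). Of 8 heat-shock genes, 2 were lower (25%, against 15.6% of all genes), and their median log2 ratio was 0.21. The part of the immediate-early response in the values of the 10 genes was not tested.

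The gate itself was visible in both libraries. Kit was at 16.9 and 11.5 FPKM and Ly6a, the gene of Sca1, at 19.8 and 14.8. The 9 markers of LSKs summed to 310 FPKM at week-0 against 119 at week-3, and 4 of them were lower (44.4%, against 15.6% of all genes). Markers of B and plasma cells, which express NF-κB genes at high levels and which the lineage depletion should remove, summed to 299 FPKM at week-0 and 34.6 at week-3. Of 9 such markers 5 were compared and 4 were lower (80%, against 15.6% of all genes), Jchain having 5120 reads and 96. The T cell list summed to 13.6 and 6.09 FPKM, and the dendritic cell list to 19.6 and 3.76 FPKM. Of the T cell list, Cd3e and Cd8a had 0 reads at week-3, but only 5 and 3 at week-0, too few to be compared. Sums of the erythroid list were 608 and 48.2 FPKM, and those of the megakaryocyte list 51.7 and 49.7. Of the 6 megakaryocyte markers, 1 was lower (16.7%, against 15.6% of all genes). The globin genes Hba-a1 and Hbb-bs alone had 268 and 275 FPKM at week-0. Tfrc of the erythroid list was higher (log2 ratio 1.48), while 6 of its 7 markers were lower (85.7%, against 15.6% of all genes). Other lists went the other way, with 1466 and 7402 FPKM for neutrophil markers, 58.7 and 220 for monocyte markers, and 120 and 3178 for mast cell and basophil markers, of which Tpsb2 had no read at week-0. The part of these cells in the values of the 10 genes was not tested.

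Depth was 6356164 reads on genes in the week-0 library against 3886695 at week-3, and 3 reads, taken as the limit that a count of 0 allows, stood for 0.472 and 0.772 reads per 1000000. Each of the 10 genes had at least 56 reads in either library, far above that limit. The tables have no row for the BCR/ABL1 transgene, so its induction could not be read from them. The mouse genes Bcr and Abl1 had 371 reads and 108 and 395 and 144. Overlapping gene models touch 3 of the 10 genes in GENCODE M21. Exons of Nfkb2 share 299 bases with Psd on the opposite strand, which had 577 reads and 33 (log2 ratio -3.42), though in the deposited coordinates the loci share only 4 bases, and 531 bases with a noncoding gene at its start. Bcl3 shares 161 exon bases with the antisense gene Gm16175, and the span of Nfkb1 holds Gm43430, with 344 reads and 27, without shared exon bases. Of the genes compared with them, Nfkbib shares 314 exon bases with Ccer2 and 42 with Sirt2 (382 reads and 181), both on the opposite strand. Whether reads were counted by strand is not given in the sources used here, so reads of such pairs cannot be told apart.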

How the data were processed

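BM LSKs were sorted by the authors, the LSKs of 3 mice were mixed per time point, their RNA was amplified as cDNA (SMARTer Ultra Low Input kit), and paired-end reads were trimmed and mapped to GRCm38 with TopHat2 2.0.9. The authors deposited counts, as whole reads per gene, and FPKM, scaled by the authors for exon length and reads on genes. The counter, its annotation and its use of strand are not given in the sources used here.

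Ratios of reads per 1000000 reads on genes (week-3 over week-0), with exact Clopper-Pearson 95% intervals, were computed in Python 3.11.15 with scipy 1.17.1 for genes with at least 20 reads over both libraries. With 1 library per time point there was no test. Instead of the study's edgeR test, the study's limits of 2 and 0.5 were kept. Alternatives used the TMM factors and exact test of edgeR 4.0.16 and the size factors of DESeq2 1.42.0. The members and lists were chosen with earlier results of these data known. Named genes are the 10, Rela, Nfkbib, Bcr and Abl1, the genes with the most reads and the extreme ratios past the limits in each list, and, of the other genes, those that a result turned on (Psd, Gm16175, Gm43430, Ccer2, Sirt2, Cyld, Tnfrsf13c and Nlrc3 were named after their values were seen). A result for 1 marker gene is not reported here.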

Additional observations from a re-analysis of the deposited data

How the results depend on the processing

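No paired analysis was possible because each time point has 1 library, and no library could be left out for the same reason. Each of the 10 genes kept a ratio below 1 under every alternative run, but most of these could not have changed that. The fold limits, the requirements of 50 or 200 reads and the assumed variation leave the ratios as they are. TMM and median-of-ratios scaling lower every log2 ratio, by 0.11 and 0.09. Of the 10 genes, 8 were lower with every gene with a read and 0.5 added to the reads, with 50 or 200 reads required and with 1 added to FPKM, 9 with TMM or median-of-ratios scaling, where Bcl3 passed the limit (2134 or 2091 lower and 1037 or 1076 higher genes in all), 10 at a fold limit of 1.5 and 7 at 3. TMM moved the median of all genes by 0.11, from 0.07 to -0.04, and that of the other negative regulators from 0.04 to -0.07 (median-of-ratios scaling, -0.02 and -0.05). A scaling adds 1 constant to every log2 ratio, so the difference between the median of the 10 genes and that of all genes (-2.50) is the same under each by construction. For the exact test given next, a call also needed a ratio of at most 0.5 or at least 2, scaled by total reads. Nfkb1 and Bcl3 did not reach 0.5, so they could not be called whatever the test gave. In edgeR's exact test with an assumed biological coefficient of variation of 0.1 and a Benjamini-Hochberg limit of 0.05, 8 of the 10 were called, along with 1651 lower and 1148 higher genes in all, and with 0.4, 2 were (Nfkbid and Tnfaip3), along with 199 lower and 50 higher genes in all. With 0.4, the lower counts were 0 for Rela and Nfkbib, 1 for receptors and ligands, 0 for adaptors, 1 for other negative regulators and 4 for targets, and the higher counts were 0 for adaptors and 0 for targets. How much LSKs of separate mice vary is not known from these data, so the choice between these values rests on no measurement here.

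Over all genes, 3965 were lower and 3888 higher of 19731 with a read when 0.5 was added to the reads, 735 and 436 of 6895 with 200 reads, 2996 and 2894 at a fold limit of 1.5, 1054 and 473 at 3, and 989 and 612 with 1 added to FPKM. Receptors and ligands had 10 lower and 1 higher with every gene with a read and 0.5 added, 8 and 1 at 1.5, 3 lower at 3 and 2 lower with 200 reads. Adaptors had 7 lower and 6 higher at 1.5 and 0 higher at 3. Other negative regulators had 1 higher at 1.5, 1 lower at 3, and a median of -0.43 with 200 reads. Higher targets numbered 4 at 1.5 and 1 with 50 or 200 reads. The requirement of 200 reads was chosen after seeing the data. By construction, the fold limits move the limit and the read requirements the genes admitted, the setting with every gene with a read changes both the genes and the reads, and adding 1 to FPKM shrinks the ratios of low genes.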

Other observations

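Further values describe the κB consensus and the pathway at large. Among the compared genes with a RefSeq window, the consensus was present for 210 of 1291 lower genes (16.3%), for 781 of 6649 genes between the limits (11.7%) and for 83 of 909 higher genes (9.13%). Of the pathway lists, it was present for 9 of 18 target genes, 3 of 12 other negative regulators, 4 of 22 adaptors and kinases and 3 of 19 receptors and ligands. These shares are descriptions of short windows.

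The deposited tables carry KEGG terms, and the NF-kappa B term, read after the data were seen, holds 5 of the 10 genes. Of its 88 other genes, 72 were compared, with a median log2 ratio of -0.30. Of these, 21 were lower (29.2%, against 15.6% of all genes) and 6 higher (8.33%, against 10.6%). The term shares genes with the pathway lists above, such as Tnfsf11, Lta, Cd40 and Cd40lg, so its values are not a separate view of the pathway. Immunoglobulin genes made up 1.16% of the week-0 library and 0.0869% of the week-3 library.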
